A study of Mus musculus with 8 samples.

Results

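The proteins that copy the genome are encoded by a set of genes described here in fibroblasts cultured from mouse embryos (MEFs), with and without Smurf2. A list of 44 DNA replication and licensing genes was taken by symbol from an array that measured 17501 genes, and all 44 were found on it. Smurf2 encodes a ubiquitin ligase of the NEDD4 family, which tags proteins for degradation. Cells were wild-type or Smurf2-/-, on the C57B6 background or on a cross of 129SVJ with NIH Black Swiss mice (mixed BL). C57B6 cells of both genotypes were measured at passage 7 (early) and 28 (late) and mixed BL cells at passage 6 and 33, with 1 array for each, which makes 8 arrays, 4 per genotype. C57B6 cells came from 1 embryo per culture, and in mixed BL 3 embryos were pooled for Smurf2-/- and 2 for wild-type cells. The stage of the embryos is E14.5 in the descriptions but day 11.5 in the growth protocol. Nothing says whether an early and a late array share a culture, so a p-value covers the spread among the arrays alone, and that spread may be technical. With so few embryos per genotype in each background, the genotype and the embryos behind a culture cannot be told apart.

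In G1 the origin recognition complex (ORC), Cdc6 and Cdt1 load the Mcm2-7 helicase onto origins, the step called licensing, and geminin blocks Cdt1 outside that window. Cyclin E with its kinase then helps to start S phase, when Cdc45 and the GINS complex turn the loaded helicase into a moving one with the help of Mcm10. Primase and DNA polymerase alpha begin each strand, the Rfc complex loads the Pcna clamp, polymerases delta and epsilon extend the strands, and Fen1 and Lig1 join the pieces on the lagging strand. Many of these genes are transcribed late in G1 under E2F factors, so their RNA in a culture is often read as a measure of how many cells are in cycle. In bulk RNA, fewer cells in cycle and less RNA per cell cannot be told apart.

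All values are log2 intensities that the authors centred on each gene's median over the 8 arrays, so a value of 1 is a level 1 log2 unit above that gene's own median and levels of different genes cannot be compared. Smurf2 stood at -0.43 and -1.21 in the early and late C57B6 Smurf2-/- arrays and at -0.70 and -1.19 in those of mixed BL, against 0.71, 0.64, 0.96 and 0.43 in the wild-type arrays in the same order. Whether its probes lie in the deleted stretch is not known here. The sex-linked genes separated the genotypes in all arrays (Xist -2.07 to -1.53 in Smurf2-/- and 1.53 to 3.20 in wild-type arrays), so embryo sex and genotype cannot be told apart either. Of 10 fibroblast markers, 9 were lower in the late C57B6 Smurf2-/- array than in the matched wild-type one, with a list median of -0.64 in that array and -0.34 in the late wild-type mixed BL array, against -0.08 to 0.17 in the other 6. Thy1 was low in both of these arrays (-2.07 and -2.21). Dcn was low in them (-2.49 and -2.09) and in the late wild-type C57B6 array (-2.17). In the late mixed BL Smurf2-/- array Lum, Dcn, Pdgfra and Thy1 were high (3.89, 2.44, 1.47 and 0.90). The other fibroblast markers lay between -0.81 and -0.01 there. Col1a1, Col1a2, Col3a1, Vim and Fn1 lay between -0.17 and 0.01 in the late wild-type mixed BL array. The list medians of macrophage, endothelial, epithelial and skeletal muscle markers lay between -0.15 and 0.21 in every array, and that of neural markers at 0.37 in the late C57B6 Smurf2-/- array and between -0.35 and 0.15 elsewhere. Of the 8 macrophage and leukocyte markers, Lyz2 and Cd53 stood at 2.07 and 2.29 in the early Smurf2-/- and at 3.20 and 2.51 in the early wild-type mixed BL array. In the other arrays they lay between -0.49 and 0.19. The rest of these markers did not match them in size, and lay between -0.10 (Cd14) and 0.36 (Cd68) in the early mixed BL arrays. Ptprc, Adgre1 and Itgam were still highest of the 8 in the early wild-type mixed BL array, at 0.19, 0.23 and 0.09. Cd68, Csf1r and Cd14 were highest in other arrays. Cd68 was higher in the early C57B6 arrays, at 0.38 in Smurf2-/- and 0.87 in wild-type. Centred values cannot show whether a marker is at 0. The part that these differences in markers and sex had in the results below was not tested.

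**Figure D1:**
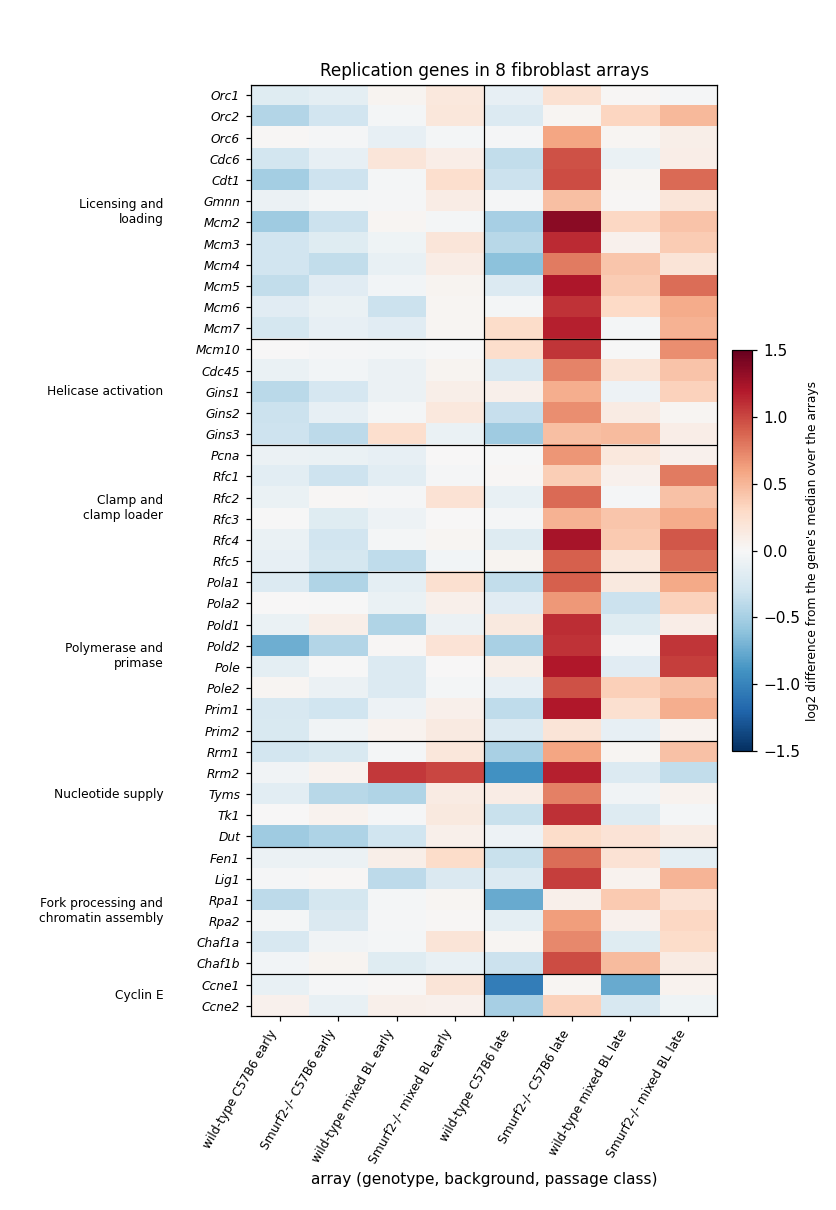
Heat map of the 44 genes (rows, ordered by role) in the 8 arrays (columns, early passage left of the vertical line, late passage right), coloured by the log2 difference from each gene's median. The late C57B6 Smurf2-/- array is red in nearly every row, with a median of 0.81, and the late mixed BL Smurf2-/- array follows at 0.35.

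Replication genes were higher without Smurf2 at late passage, and far more so in C57B6 than in mixed BL. The median of the 44 genes was -0.13 in the early and 0.81 in the late C57B6 Smurf2-/- array, and -0.16 and -0.20 in the wild-type arrays of that background. In mixed BL it was 0.07 and 0.35 without Smurf2, and -0.04 and 0.05 in wild-type arrays. At late passage the C57B6 Smurf2-/- array lay above its wild-type partner for 44 of 44 genes, a share of 62.8% among all genes, with a median difference of 0.98 and a range of 0.23 to 2.08. It did so by over 1 log2 unit for 21 of the 44, where 2.1% of all genes did. The late mixed BL arrays differed in the same direction for 34 of 44, against 42.7% of all genes, with a median of 0.24, and by over 1 log2 unit for 2, Pole and Pold2, where 2.15% of all genes did. The C57B6 difference was the larger for 42 of the 44, the exceptions being Rfc1 and Pole. The share of all genes for this comparison was not counted. Both late Smurf2-/- arrays lay above both late wild-type arrays for 31 genes (70.5%, against 20.5% of all genes). The late C57B6 Smurf2-/- array was the highest of all 8 for 38 (86.4%, against 29.4%).

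Limma's contrast within late passage, in a model that holds background and the interaction of genotype with passage, gave a median difference of 0.61 over the 44 genes. It was above 0 for 44 of 44, where it was for 9833 of all 17501 genes, and ranged from 0.13 for Dut to 1.33 for Pold2. No member passed an adjusted p of 0.05, nor did any other gene (0% of 17501), and the lowest adjusted p of a member was 0.101. At an unadjusted p under 0.05, 23 of the 44 were higher (52.3%, against 6.39% of all genes) and 0 lower. These values rest on few arrays. Without the late C57B6 Smurf2-/- array the median was 0.27, with 36 genes above 0. The share of all genes above 0 in that fit was not counted. The median was 0.55 without its wild-type partner, and 0.98 with the late mixed BL Smurf2-/- array left out.

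At early passage the genotypes lay close together in C57B6, while in mixed BL the early difference was not far below the late one. The pair medians were 0.06 in C57B6 (28 of 44 genes higher without Smurf2) and 0.17 in mixed BL (39 of 44). At late passage they were 0.98 (44 of 44) and 0.24 (34 of 44). By role, the early mixed BL median was above the late one for nucleotide supply (0.20 against 0.11) and fork processing (0.13 against 0.03). It was below the late one in the other role groups. Of all 17501 genes, 8762 and 9101 were higher in these pairs. Limma gave a median of 0.10 with 37 of 44 above 0, where 8869 of all 17501 genes were. It called 0 members at an adjusted p under 0.05 (0.00571% of all genes), and 0 were higher at an unadjusted p under 0.05 (0.383% of all genes). Without the early mixed BL Smurf2-/- array the median was -0.03, and without the early C57B6 one 0.21 (Smurf2-/-) or 0.06 (wild-type). The difference between the late and the early genotype effect had a median of 0.54 and was above 0 for 43 of 44, all but Dut (9463 of all 17501 genes). It passed for 0 members and 0% of all genes, with 10 members higher at an unadjusted p under 0.05 (22.7%, against 2.85% of all genes). The median was 0.18 and 0.86 without the late Smurf2-/- array of C57B6 and of mixed BL, and 0.47 without the early C57B6 Smurf2-/- array. The count of 10 also changed with the array left out. In both backgrounds at once the genotype difference was larger at late passage for 27 of 44 genes (61.4%, against 26.8% of all genes).

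Over all 8 arrays the genotype difference had a median of 0.38, from 0.04 to 0.78, and was above 0 for 44 of 44 genes (9712 of all 17501). With the late C57B6 Smurf2-/- array left out the median was 0.18, and with its wild-type partner left out 0.25. The same direction in all 4 matched pairs was seen for 19 (43.2%, against 11% of all genes). Limma called 0 members at an adjusted p under 0.05, as it did 0.0286% of all genes, and the lowest adjusted p was 0.651; 12 members were higher at an unadjusted p under 0.05 (27.3%, against 3.14%). That count depended on single arrays: it was 1 without either late wild-type array, 4 without the late and 5 without the early mixed BL Smurf2-/- array, 6 without the late and 19 without the early C57B6 Smurf2-/- array. The share of all genes in these fits was not counted.

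**Figure D2:**
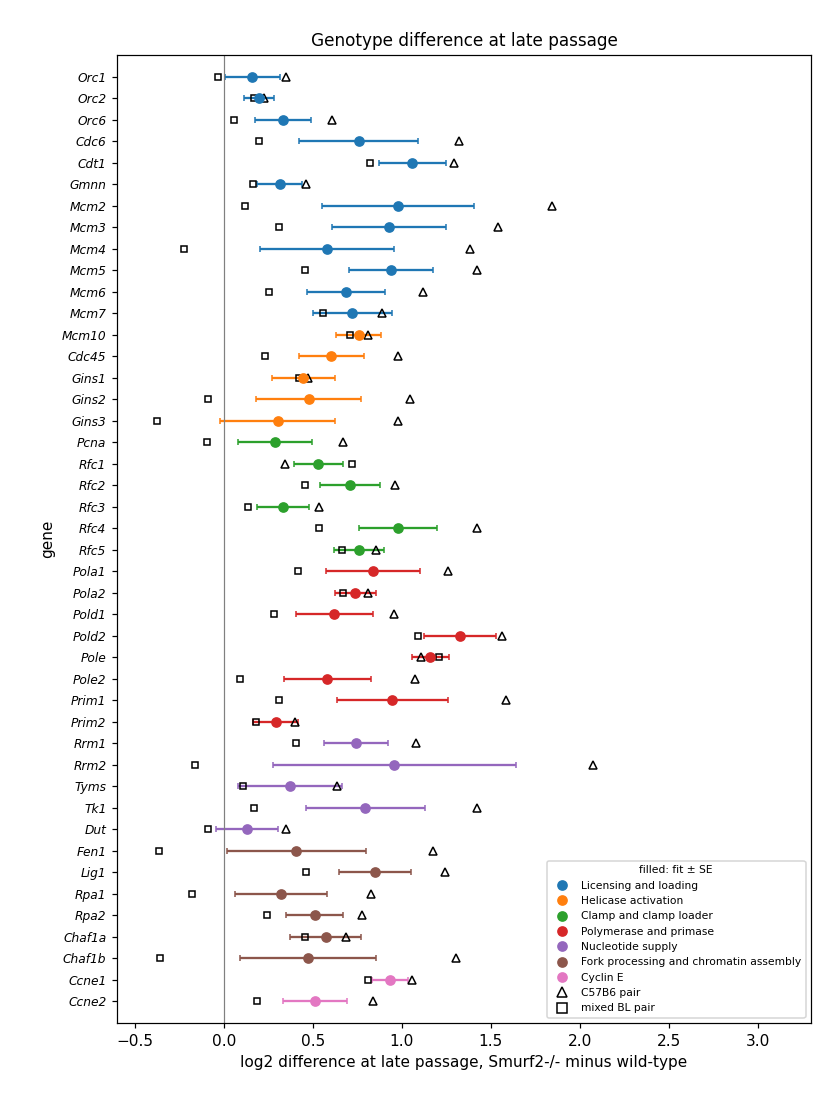
Genotype difference at late passage for each of the 44 genes, on the log2 scale, with limma's estimate (filled circle, bar ± SE, coloured by role), the C57B6 pair (triangle) and the mixed BL pair (square). All 44 estimates and triangles lie right of 0, and 10 squares lie left of it.

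Letters in the promoters of these genes were read because they lay high together. Of the 44, 36 had an entry in a RefSeq promoter table of build GRCm38.p6, which spans 250 bases before to 50 after a gene's start. An E2F word (TTTCCCGC, TTTCGCGC, TTTGCCGC or TTTGGCGC on either strand) lay in 13 of the 36 (36.1%), against 704 of 27025 genes (2.6%). The CCAAT box, searched as CCAAT on either strand, lay in 22 (61.1%, against 41.1%), and the CHR words TTTGAA or TTTAAA in 10 (27.8%, against 30.6%). Of the licensing genes with an entry 7 of 10 held an E2F word, of the polymerase and primase genes 3 of 6, and of the nucleotide supply genes 0 of 5. The late genotype difference had a median of 0.72 over the 13 genes with an E2F word and 0.61 over the 23 without. All 44 members lay above 0, so the sign cannot set these sets apart, and the difference in medians was not tested. A match is a description and not a bound site. Other spellings of an E2F site were not searched, so a promoter without a word may still hold one. The stretches shown next, 5′ to 3′, carry E2F words (capitals) within 250 bases before the start of a licensing gene; they were chosen after the matches were seen, to show how alike the words are.
Orc1, chr4:108579401-108579453, plus strand: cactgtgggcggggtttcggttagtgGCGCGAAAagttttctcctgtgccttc
Cdc6, chr11:98907987-98908046, plus strand: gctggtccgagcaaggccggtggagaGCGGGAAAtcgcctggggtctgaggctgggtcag
Mcm5, chr8:75109330-75109389, plus strand: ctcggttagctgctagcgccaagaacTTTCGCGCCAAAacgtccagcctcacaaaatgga
Mcm6, chr1:128359782-128359841, minus strand: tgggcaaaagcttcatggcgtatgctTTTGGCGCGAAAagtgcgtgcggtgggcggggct
Mcm7, chr5:138172015-138172074, minus strand: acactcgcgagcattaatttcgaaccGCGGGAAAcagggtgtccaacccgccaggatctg
The capitals begin 27 bases before the start of Orc1, 138 before that of Cdc6, 153 for Mcm5, 110 for Mcm6 and 165 for Mcm7. In Mcm5 and Mcm6 they mark overlapping words.

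Licensing and loading genes had the largest late C57B6 median of the 7 role groups, 1.21 over 12 genes, and a late mixed BL median of 0.18. Cdt1, which brings the helicase to ORC, stood at -0.51 and -0.32 in the early and late wild-type C57B6 arrays and at -0.31 and 0.98 without Smurf2. In mixed BL it stood at -0.02 and 0.02 in wild-type and at 0.25 and 0.85 in Smurf2-/- arrays. Both late Smurf2-/- arrays were thus the highest of the 8, and the groups did not overlap at late passage. Its late difference was 1.06 ± 0.19 (SE; limma adjusted p = 0.146), or 2.08-fold, and its early difference 0.24 ± 0.19. Cdt1 had the lowest late p of the licensing genes, and the 250 bases before its start are shown for that reason. They hold none of the words searched, and its E2F word lies after the start.
Cdt1, chr8:122567765-122568014, plus strand: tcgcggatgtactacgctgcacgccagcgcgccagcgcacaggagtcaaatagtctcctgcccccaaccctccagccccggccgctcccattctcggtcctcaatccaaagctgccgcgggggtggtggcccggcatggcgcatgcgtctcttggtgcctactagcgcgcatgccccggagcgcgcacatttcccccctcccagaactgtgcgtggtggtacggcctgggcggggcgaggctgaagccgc

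Mcm2, a subunit of the ring-shaped helicase, stood at -0.53 and -0.49 in wild-type C57B6 and at -0.32 and 1.35 without Smurf2. In mixed BL the values were 0.03 and 0.31 in wild-type and -0.03 and 0.43 in Smurf2-/- arrays. The late C57B6 array stood alone, and the late difference of 0.98 ± 0.43 (SE; limma adjusted p = 0.421) joined pair differences of 1.84 and 0.12. The other subunits ranged from 0.89 (Mcm7) to 1.54 (Mcm3) in the late C57B6 pair. In the late mixed BL pair they ranged from -0.22 (Mcm4) to 0.56 (Mcm7), with Mcm4 the only subunit of the ring that was lower without Smurf2 in either late pair. The ORC genes on the list, Orc1, Orc2 and Orc6, differed by 0.16, 0.20 and 0.33 at late passage, against 0.76 for Cdc6, the ATPase that completes loading. The ORC subunits outside the list parted, with 0.55 ± 0.16 for Orc3, 0.40 ± 0.10 for Orc5 and -0.19 ± 0.25 for Orc4. Gmnn, the gene of the Cdt1 inhibitor geminin, differed by 0.31 ± 0.13, and its values correlated with the median of the other 43 genes across the 8 arrays at r = 0.98, the arrays being shared by all genes. At an unadjusted p under 0.05, 5 of the 12 licensing genes were higher at late passage, against 6.39% of all genes.

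Helicase activation genes had late pair medians of 0.98 in C57B6 and 0.23 in mixed BL. Mcm10, a scaffold that helps the helicase to open the origin, stood at 0.01 and 0.26 in wild-type C57B6, -0.01 and 1.07 without Smurf2, -0.03 and -0.01 in wild-type mixed BL and -0.01 and 0.70 without Smurf2. It lay within 0.03 of its median in the 4 early arrays, and both late Smurf2-/- arrays were above all others. Its late difference was 0.76 ± 0.13 (SE; limma adjusted p = 0.139), with pair differences of 0.81 and 0.71. Cdc45, which joins the ring as part of the active helicase, stood at -0.10 and -0.24, -0.04 and 0.74, -0.08 and 0.20, and 0.04 and 0.43 in the same order, and differed by 0.61 ± 0.18 (adjusted p = 0.273). The GINS subunits did not follow one pattern in mixed BL. There the late difference was 0.42 for Gins1, -0.09 for Gins2 and -0.38 for Gins3, while in C57B6 it was 0.48, 1.05 and 0.98.

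The clamp loader genes were among those with the more even differences between backgrounds, with late pair medians of 0.76 and 0.50 for the clamp and its loader. Rfc4, a small subunit of the loader, stood at -0.11 and -0.19 in wild-type C57B6, -0.29 and 1.23 without Smurf2, -0.03 and 0.40 in wild-type mixed BL and 0.03 and 0.93 without Smurf2. Rfc5, another small subunit, stood at -0.13 and 0.05, -0.27 and 0.90, -0.38 and 0.18, and -0.05 and 0.84 in that order. For both genes the late Smurf2-/- arrays were the highest, and the late differences were 0.98 ± 0.22 and 0.76 ± 0.14 (SE; limma adjusted p = 0.198 and 0.155). Rfc1, the large subunit, differed by 0.72 in mixed BL and 0.35 in C57B6. Pcna, the clamp itself, showed the opposite split, with 0.67 in C57B6 and -0.09 in mixed BL, and its 2 transcript clusters gave nearly the same values. At early passage 5 of these 6 genes were lower without Smurf2 in C57B6, and 6 of 6 were higher in mixed BL.

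Polymerase and primase genes had the highest late estimates, and 6 of 8 were higher at an unadjusted p under 0.05, against 6.39% of all genes. All 8 were higher in both late pairs, with medians of 1.09 in C57B6 and 0.36 in mixed BL. Pold2, an accessory subunit of polymerase delta, stood at -0.74 and -0.48 in wild-type C57B6 and at -0.44 and 1.08 without Smurf2. In mixed BL it stood at 0.01 and -0.01 in wild-type and at 0.21 and 1.08 in Smurf2-/- arrays. The late Smurf2-/- arrays of both backgrounds reached the same value, and the late difference was 1.33 ± 0.20 (SE; limma adjusted p = 0.128), or 2.51-fold. Pold2 had the lowest late p of the polymerase genes with a promoter entry, of which it had 2. The first is shown, with its CCAAT box, in reverse, in capitals.
Pold2, chr11:5878257-5878506, minus strand: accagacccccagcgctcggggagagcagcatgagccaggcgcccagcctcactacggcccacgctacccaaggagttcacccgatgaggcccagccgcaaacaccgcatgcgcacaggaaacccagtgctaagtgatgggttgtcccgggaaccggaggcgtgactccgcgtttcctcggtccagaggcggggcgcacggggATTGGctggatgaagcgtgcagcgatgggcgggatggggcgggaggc

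Pole, the catalytic subunit of polymerase epsilon on the leading strand, stood at -0.14 and 0.09 in wild-type C57B6, 0.00 and 1.20 without Smurf2, -0.21 and -0.17 in wild-type mixed BL and 0.00 and 1.04 without Smurf2. The backgrounds gave nearly the same difference: the late pairs differed by 1.11 and 1.21, the estimate was 1.16 ± 0.10 (SE), or 2.24-fold, and the limma adjusted p of 0.101 was shared with Ccne1 as the lowest of the 44. Over 18 alternatives its late difference stayed between 1.07 and 1.26. Its partner subunit Pole2 differed by 1.08 in C57B6 and 0.09 in mixed BL, and the small subunits Pole3 and Pole4, which are not on the list of 44, had late differences of 0.23 ± 0.12 and 0.05 ± 0.11. The primase genes parted as well, with 0.95 ± 0.31 for the catalytic subunit Prim1 and 0.29 ± 0.13 for Prim2. Pola1, on the X chromosome, differed by 0.84 ± 0.26 and its partner Pola2, on chromosome 19, by 0.74 ± 0.12.

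Nucleotide supply genes were higher without Smurf2 at late passage in C57B6 for 5 of 5 (median 1.08) and in mixed BL for 3 of 5 (median 0.11). Rrm2, the small subunit of ribonucleotide reductase, which makes the deoxynucleotides, differed most between arrays. It stood at -0.06 and -0.91 in wild-type C57B6 and at 0.06 and 1.17 without Smurf2, but at 1.06 and -0.20 in wild-type and 1.00 and -0.37 in Smurf2-/- mixed BL arrays. Its late minus early difference was -0.85 in wild-type C57B6, -1.26 in wild-type mixed BL and -1.37 in Smurf2-/- mixed BL, but 1.11 in C57B6 without Smurf2. The late difference of 0.96 ± 0.68 (SE; limma adjusted p = 0.651) therefore joined 2.08 in C57B6 and -0.16 in mixed BL, and was -0.27 without the late C57B6 Smurf2-/- array. Both arrays in which Rrm2 stood high at early passage are those with the high Lyz2 and Cd53 values given above. The rest of that marker list did not match these values in size. The part of these cultures' cell make-up in it was not tested.

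Tk1, thymidine kinase of the salvage route, stood at 0.00 and -0.33 in wild-type C57B6, 0.06 and 1.09 without Smurf2, -0.02 and -0.20 in wild-type mixed BL and 0.15 and -0.03 without Smurf2. Only the late C57B6 Smurf2-/- array stood apart among these 8, and the late difference was 0.80 ± 0.34 (SE; limma adjusted p = 0.407). Rrm1, the large subunit of ribonucleotide reductase, was the nucleotide gene with the lowest late p, at 0.74 ± 0.18 (adjusted p = 0.208) and pair differences of 1.08 and 0.41. Tyms, thymidylate synthase, differed by 0.37 ± 0.29, and Dut, which removes dUTP, by 0.13 ± 0.17. The 250 bases before the start of Rrm1 hold 2 CCAAT boxes (capitals) and none of the E2F words searched.
Rrm1, chr7:102441445-102441694, plus strand: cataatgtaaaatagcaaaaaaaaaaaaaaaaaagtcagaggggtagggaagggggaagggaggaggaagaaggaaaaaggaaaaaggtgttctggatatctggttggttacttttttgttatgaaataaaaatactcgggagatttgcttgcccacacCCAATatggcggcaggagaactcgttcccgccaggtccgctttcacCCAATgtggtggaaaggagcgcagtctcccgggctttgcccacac

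**Figure D3:**
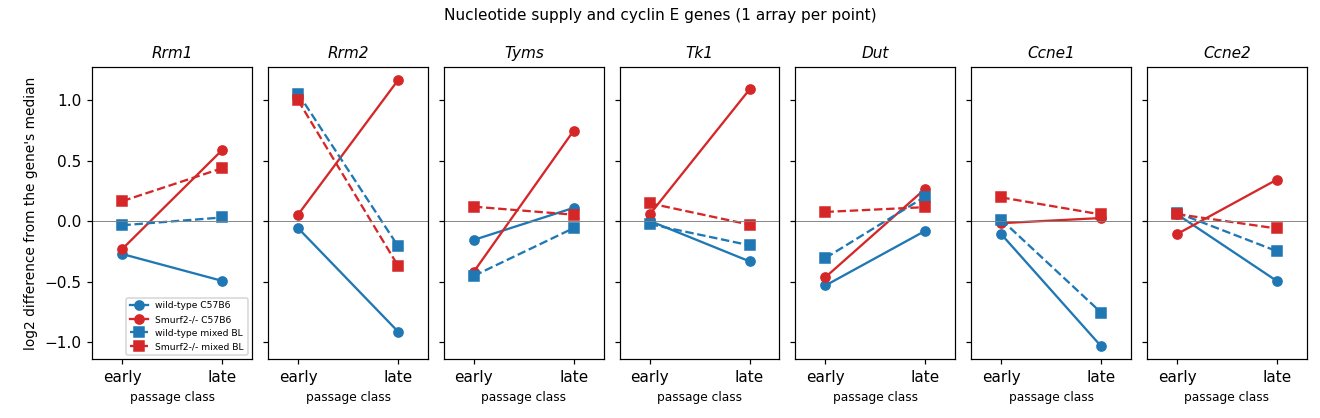
Log2 difference from the gene's median (vertical axis) at early and late passage for the 5 nucleotide supply genes and the cyclin E genes, 1 array per point, with lines joining the arrays of a genotype and background. Rrm2 starts near 1 in both mixed BL cultures and ends below 0, and Ccne1 ends at -1.03 and -0.75 in the wild-type cultures against 0.03 and 0.06 without Smurf2.

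The cyclin E genes were higher without Smurf2 in both late pairs, with medians of 0.95 in C57B6 and 0.50 in mixed BL. Ccne1, the regulatory subunit of the kinase that starts S phase, stood at -0.11 and -1.03 in wild-type C57B6, -0.02 and 0.03 without Smurf2, 0.02 and -0.75 in wild-type mixed BL and 0.20 and 0.06 without Smurf2. Its late wild-type arrays were the lowest of the 8 and its late Smurf2-/- arrays stayed near the early ones, whereas for 38 of the 44 genes the late C57B6 Smurf2-/- array was the highest. The late difference was 0.93 ± 0.10 (SE; limma adjusted p = 0.101), or 1.91-fold, with pair differences of 1.06 and 0.81. Late minus early, the wild-type arrays differed by -0.93 and -0.77 and the Smurf2-/- arrays by 0.04 and -0.14. Ccne2, its paralog, stood at 0.06 and -0.49, -0.11 and 0.34, 0.07 and -0.25, and 0.06 and -0.06 in the same order, with a late difference of 0.51 ± 0.18 (adjusted p = 0.329); its highest array was the late C57B6 Smurf2-/- one, as for most members. Ccne1 had the lowest correlation of any member with the median of the others across the 8 arrays (r = 0.37). Orc2 and Rrm2 were the only others under 0.5 (r = 0.47 each). For 19 members r was at least 0.9, and for 30 at least 0.8. The share of all genes with such an r was not counted, so these counts do not set the members apart from other genes.

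Genes of fork processing and chromatin assembly differed by a median of 1.00 in the late C57B6 pair, 6 of 6 higher, and of 0.03 in the late mixed BL pair, 3 of 6 higher. Lig1, the ligase that seals lagging-strand pieces, stood at -0.02 and -0.20 in wild-type C57B6, 0.02 and 1.04 without Smurf2, -0.40 and 0.05 in wild-type mixed BL and -0.21 and 0.51 without Smurf2. Chaf1a, the large subunit of the assembly factor that places histones on new DNA, stood at -0.24 and 0.03, -0.05 and 0.72, -0.03 and -0.19, and 0.19 and 0.27 in that order. The late groups did not overlap for either gene, and the differences were 0.85 ± 0.20 and 0.57 ± 0.20 (SE; limma adjusted p = 0.206 and 0.332). Their partners went the other way in mixed BL: the flap nuclease gene Fen1 differed by -0.36 there and 1.18 in C57B6, and Chaf1b by -0.36 and 1.31. Rpa1 and Rpa2, of the protein that coats single-stranded DNA, differed by -0.18 and 0.24 in mixed BL and by 0.83 and 0.78 in C57B6.

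**Figure D4:**
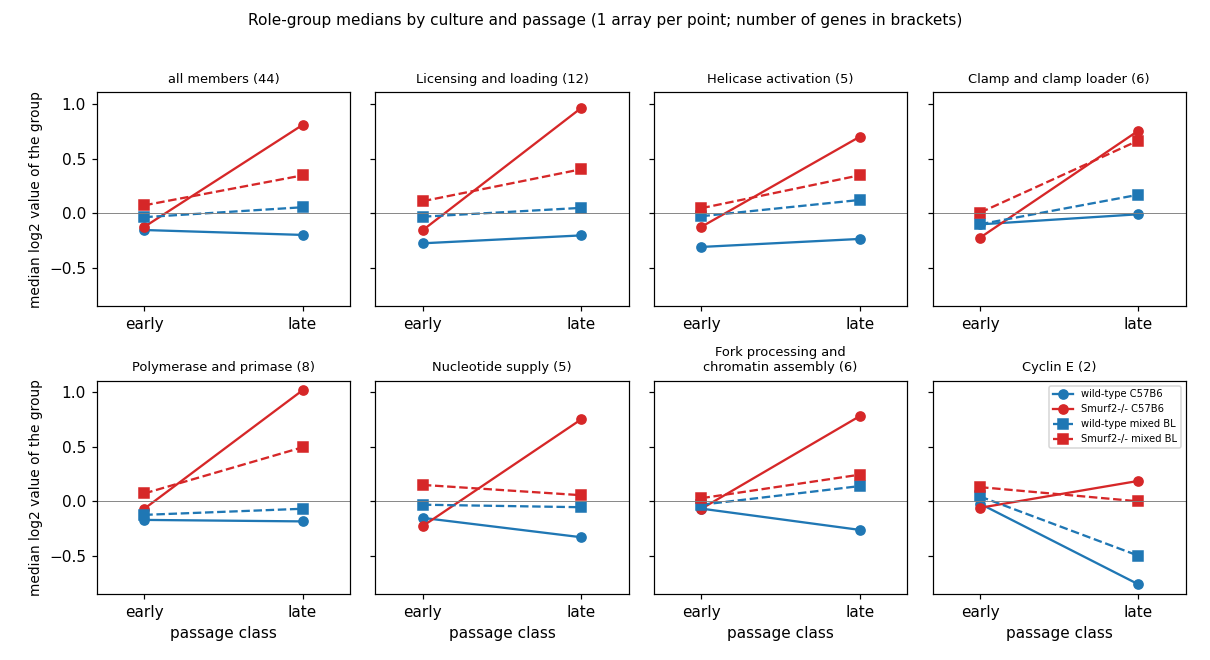
Median log2 value of all 44 genes and of each role group (number of genes in brackets) at early and late passage, 1 array per point, wild-type in blue and Smurf2-/- in red, C57B6 with solid and mixed BL with dashed lines. The solid red line ends highest in every panel, at 0.81 for all members, while for cyclin E both blue lines end lowest, at -0.76 and -0.50.

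Passage was compared next, within each genotype. In wild-type C57B6 cells the late minus early median was -0.02, with 20 of 44 genes higher late (8810 of all 17501 genes). In wild-type mixed BL cells it was 0.15, with 34 of 44 higher (9389 of all genes). Limma's median was 0.09, with 32 of 44 above 0 (9432 of all genes). It was 0.26 and -0.09 without the late C57B6 and the late mixed BL wild-type array, and 0.06 without the early C57B6 one. Limma called 0 members and 0% of all genes at an adjusted p under 0.05. At an unadjusted p under 0.05 there were 4 members (9.09%, against 7.25% of all genes in either direction), Orc2, Dut and Rfc5 higher and Ccne1 lower at -0.85 ± 0.10 (adjusted p = 0.493). Without Smurf2 the late minus early medians were 0.93 in C57B6 (44 of 44 higher, against 10803 of all 17501 genes) and 0.24 in mixed BL (34 of 44, against 8273). Limma's median without Smurf2 was 0.56. That median was 0.27 without the late C57B6 and 0.95 without the late mixed BL Smurf2-/- array. Again 0 members and 0% of all genes passed, with a lowest adjusted p of 0.102, and 23 members were higher at an unadjusted p under 0.05 (52.3%, against 6.06% of all genes). That count also changed with the array left out. Over both genotypes the median was 0.37 (0.16 without the late and 0.24 without the early C57B6 Smurf2-/- array), 0 members passed (0.0171% of all genes), and 17 were higher at an unadjusted p under 0.05 (38.6%, against 6.95%) with 1, Ccne1, lower. The 17 became 6 and 8 without the early Smurf2-/- array of C57B6 and mixed BL, 9 and 11 without the late ones, and 26 without the late wild-type C57B6 array. The share of all genes in these fits was not counted. The late arrays used here are those of the late genotype comparison, so these values are not independent of it.

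Backgrounds differed in opposite directions in different pairs of arrays. Mixed BL was higher than C57B6 for 29 of 44 members in early wild-type (median 0.09), 36 in late wild-type (0.28) and 40 in early Smurf2-/- arrays (0.23), but for 5 in late Smurf2-/- arrays (-0.37). Of all 17501 genes, 9860, 10148, 9999 and 6467 were higher in the same order. Over all arrays the difference had a median of 0.07 with 28 of 44 above 0 (9048 of all 17501 genes). Without the late C57B6 Smurf2-/- array the median was 0.20, with 40 above 0, and it was -0.06, -0.08 and -0.02 without the early Smurf2-/- C57B6, the late wild-type C57B6 and the early wild-type mixed BL array. Limma called 0 members at an adjusted p under 0.05 against 0.08% of all genes, and 3 at an unadjusted p under 0.05 (6.82%, against 13.5% of all genes in either direction). They were Orc2 at 0.46 ± 0.05 (adjusted p = 0.069), Rpa1 at 0.49 ± 0.17 and Pold1 at -0.47 ± 0.16. With the late C57B6 Smurf2-/- array left out, 19 were higher at that level, and the share of all genes in that fit was not counted. Orc2, a core subunit of the origin recognition complex, stood between -0.45 and 0.03 in the C57B6 and between -0.03 and 0.49 in the mixed BL arrays and was higher in mixed BL in all 4 matched comparisons; it was the member called under some alternatives. The genotype difference was smaller in mixed BL than in C57B6 for 39 of 44 members, where it was for 10562 of all 17501 genes. Its median over the members was -0.25, yet 0 members and 0% of all genes passed. At an unadjusted p under 0.05, 0 members did (3.18% of all genes in either direction). With the late C57B6 Smurf2-/- array left out that median was 0.10. With the early one left out it was -0.64. The other arrays left out in turn gave -0.48 to -0.05.

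Other genes of replication, 39 measured of 40 listed from textbook knowledge, lay on the same side. Their late difference had a median of 0.50, with 35 above 0, 23 higher and 2 lower at an unadjusted p under 0.05 and 0 called by limma. Of all 17501 genes 9833 were above 0. Of these 17501, 1119 were higher and 1220 lower at that level, so the 2 lower ones are near the overall share. Dbf4, the activator of the kinase that fires origins, differed by 1.31 ± 0.14 (SE; adjusted p = 0.10) with 1.06 in C57B6 and 1.56 in mixed BL, while the gene of that kinase, Cdc7, differed by 0.19 ± 0.23. The histone chaperone gene Asf1b differed by 1.08 ± 0.11, the S phase cyclin gene Ccna2 by 1.11 ± 0.18 and the origin firing factor gene Ticrr by 0.87 ± 0.17. Those lower were Samhd1, which breaks down deoxynucleotides, at -1.10 ± 0.31 (adjusted p = 0.25; -1.17 in C57B6 and -1.03 in mixed BL), and Cdk2, the partner kinase of cyclin E, at -0.33 ± 0.13. The 25 mitosis genes, which peak later in the cycle, had late pair medians of 1.03 in C57B6 and 0.66 in mixed BL, beside 0.98 and 0.24 for the 44 replication genes and 0.08 and -0.03 for all genes. Of the 13 E2F and pocket protein genes the late pair medians were 0.22 in both backgrounds. The same arrays stand behind all of these lists.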

How the data were processed

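RNA of MEFs was measured on 8 Affymetrix arrays. The deposited values are log2 intensities that the authors centred by transcript cluster: no cluster's median over the arrays exceeded 5e-07 in size. Their scale was read from the rounding step, since 96.8% of clusters held whole multiples (tolerance 6e-08) of the step of log2 intensities. How the arrays were normalised and probes summarised is not given in the sources used here. Builds mm8 and mm9 stand in the submitters' processing notes, with no role. An exon array is named in the series text, but the identifiers are those of a gene-level array, whose annotation gave the symbols. Of 24169 clusters 19134 had 1 symbol, 1230 several and 3805 none. Of those with 1 symbol, 19067 were matched by gene identifier to RefSeq (GRCm38.p6) and took its symbol, whether or not it differed. Clusters of 1 symbol were averaged to 17501 genes, the 44 members from 46 clusters.

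All genes were fitted with limma 3.58.1 in R 4.3.3 (no trend), with Benjamini-Hochberg adjustment over all of them and a threshold of 0.05. The main model had terms for genotype, background and passage class. Genotype by passage, or genotype by background, was added for the contrasts that need it. The number of arrays limits the precision. Fits were checked on simulated data. The replicate number in the titles is the passage class, so the pairing comes from the labels and the models hold it as a block. Centred values allow no filter on dim clusters, and a filter on spread was run instead.

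The members and lists were chosen with earlier results of these data known. Values in every array are given for the 2 members of each role group with the largest late genotype difference; a member that passed a test or was lower without Smurf2 in a genotype fit would have been added. Promoters shown belong to the member of the licensing, polymerase and nucleotide groups with the lowest late p and an entry. Alternatives were each array left out, no replicate block, quantile normalisation, median centring, each cluster alone, a trend or robust variance, all interactions, culture as a random block, no X and Y genes, the more variable genes, late or early arrays alone and an adjusted p under 0.1. Some cell cycle genes were not analysed here.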

Additional observations from a re-analysis of the deposited data

Results flagged for a closer look

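For Rrm2 the genotype difference had opposite signs in the backgrounds at both passage classes. It was -0.06 and -0.16 at early and late passage in mixed BL and 0.11 and 2.08 in C57B6, so the mean effect in mixed BL minus that in C57B6 was -1.20. The interaction term in limma did not pass (-1.20 ± 0.91 SE, adjusted p = 0.939).

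For Ccne2 the genotype difference had opposite signs at the passage classes in both backgrounds. It was 0.84 and 0.19 at late and -0.16 and -0.01 at early passage in C57B6 and mixed BL, so the mean late effect minus the early one was 0.60. The interaction term in limma did not pass (0.60 ± 0.25 SE, adjusted p = 0.944).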

How the results depend on the processing

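In all 9 comparisons 0 members passed the adjusted p of 0.05 under every alternative run, apart from the difference between backgrounds, where Orc2 made the count 1 with culture as a random block (adjusted p = 0.025), 1 with each cluster alone (adjusted p = 0.041) and 1 at an adjusted p under 0.1. Leaving out 1 array at a time, the median of the early genotype difference ranged from -0.030 (without the early mixed BL Smurf2-/- array) to 0.21 (without the early C57B6 one), and that of late against early passage within wild-type cells from -0.093 to 0.26. For Rrm2 the direction turned without the late C57B6 Smurf2-/- array: over the arrays left out the genotype difference ranged from -0.084 to 0.84 over all arrays and from -0.27 to 2.18 at late passage. The other 13 genes given in every array kept the sign of both differences. Without the replicate block, which here is the pairing by passage class, the median genotype difference of members was 0.38 and that between backgrounds 0.07, 0 members were called in either, and no call of a member changed. The number of all genes called, over the alternatives, ranged from 0 to 5 for genotype, 0 to 2 within early and 0 to 6 within late passage, 0 to 70 for passage and 1 to 148 for background, and was 0 in the other comparisons. The random block could not act in the model with genotype by background, since culture is encoded there. In the additive model and the one with genotype by passage, the estimated correlation within a culture was negative (-0.25 and -0.20). The Orc2 call with that block rests on the first of these estimates.

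With 1 array per combination, a difference at late passage has 2 arrays per genotype, and in C57B6 it rests on 1 embryo each. The signal over background is unknown, so a small difference in a dim gene and one in a bright gene cannot be set against each other. Whether cultures differed in the share of cells in cycle when RNA was taken is not known here.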
